A study of Mus musculus with 2 samples.

Results

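The transforming growth factor beta (TGF-beta) ligands, their receptors and the latent TGF-beta binding proteins were examined in mouse lung after bleomycin, an antitumour drug whose alveolar damage is followed by scarring. The 9 genes were Tgfb1, Tgfb2 and Tgfb3 (ligands), Tgfbr1, Tgfbr2 and Tgfbr3 (receptors), and Ltbp1, Ltbp2 and Ltbp3 (latent binders), out of 20886 genes that could be named on the array. They were listed by symbol, and their probes were found through the RefSeq accession of each probe. All 9 were measured, by 13 probes printed in 31 spots. The series holds whole lung of 1 C57BL6/N sample and 1 sample of the same strain that overexpresses heat shock protein 27 (HSP27, the product of Hspb1) from a transgene, called HSP27 TG here. Both samples are labelled male and 6 weeks old, and both received bleomycin at 1.25 mg/kg into the trachea 14 days before the lungs were taken. The labels give neither the promoter nor the species of the transgene, nor how many animals a sample holds, and no lung without bleomycin was analysed here. Each group has 1 array, which leaves the spread between animals unknown, so that no difference below has a test or a p-value.

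TGF-beta is secreted in a latent form, in which the mature dimer stays bound to its own propeptide. Latent binding proteins tether this complex to the matrix, from which integrins and proteases release the active ligand. The active ligand binds the type II receptor Tgfbr2, which recruits and activates the type I receptor Tgfbr1, and this kinase phosphorylates Smad proteins that enter the nucleus. In the lung the pathway is best known for driving fibroblasts to become myofibroblasts and to lay down collagen.

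Of 39429 probes, 69.3% (C57BL6/N) and 69.4% (HSP27 TG) were well above background, with no saturated spot. The alveolar epithelial markers, which define the labelled tissue, were well above background on both arrays for 18 of 19 listed genes, and the other had no named probe. Hspb1 itself read 41040 in the C57BL6/N lung and 53554 in the HSP27 TG lung, 1.18-fold higher after scaling. The sex-linked genes did not fully match the label of the C57BL6/N sample, which is male like that of the HSP27 TG sample. Both probes of Xist, the RNA of the inactive X chromosome, passed background in the C57BL6/N sample and not in the HSP27 TG sample. The Y-linked Ddx3y, Eif2s3y and Uty were 3.77 to 4.33-fold higher on the HSP27 TG array. Ddx3y (508), Eif2s3y (800) and 1 Uty probe (17.1) were well above background in the C57BL6/N sample too, while Kdm5d and the other Uty probe were not. That sample thus gave both Xist and Y-linked signal, and the reason was not tested. The arrays also differed in markers of other tissues and cell types. Of all measured genes, 10.2% were at least 1.5-fold higher on the HSP27 TG array and 8.31% lower. Heart muscle markers were at least 1.5-fold higher there for 9 of 9 measured genes, with a median log2 difference of 3.41. A further 3 were well above background on the HSP27 TG array alone. Fat markers were higher for 4 of 4 (median 3.01), with 3 more on that array alone and Lep at background on both. Basal airway markers were higher for 5 of 5 (median 3.57), with 1 more on that array alone. Each of these medians was wider than the difference of any of the 9 genes. Of club and goblet cell markers 5 of 7 were higher, with a median of 4.27. The club cell genes Scgb1a1 (-0.19) and Cyp2f2 (0.02) were not among the higher ones, and Scgb3a2 had no named probe. Of cartilage markers 3 of 4 were higher, with 1 lower and 4 others at background on both arrays, and of mesothelial markers 1 of 7. Alveolar type 1 markers were lower for 4 of 9 genes. Alveolar type 2 markers had a median of -0.43 with 0 of 9 past 1.5-fold, and T and NK cell markers had 1 of 8 higher and 1 lower. The part of these differences in the results below was not tested.

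None of the 9 genes differed by 1.5-fold between the arrays. Values are log2 signals after subtraction of the 75th percentile of each array, called scaled values (that percentile was a signal of 1287 for C57BL6/N and 1426 for HSP27 TG), and a difference is HSP27 TG minus C57BL6/N. Differences ran from -0.46 for Tgfbr3 to 0.47 for Tgfb3, with 5 genes above 0 and 4 below, and a median of 0.17. Over all 15495 measured genes the median was -0.04, and 10.2% were higher and 8.31% lower by 1.5-fold or more, against 0 and 0 of 9 here. Higher genes made up 55.1% of all those past 1.5-fold, and 66.5% after cyclic loess. At 1.25-fold, a threshold chosen after the values were seen, Tgfb1 and Tgfb3 were higher and Tgfbr3 lower, 2 and 1 of 9, where 19.8% and 22.6% of all genes passed. The central 95% of all genes spanned -0.92 to 1.24 and held all 9 members, and the central 50% spanned -0.29 to 0.24 and held 4 of them.

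**Figure D1:**
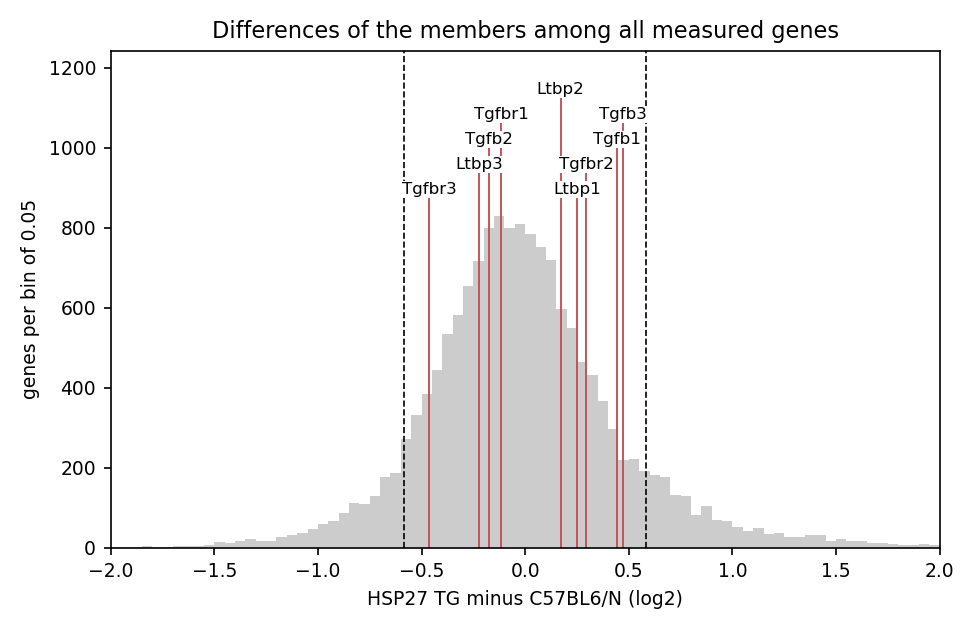
Histogram of the log2 difference, HSP27 TG minus C57BL6/N, over all measured genes in bins of 0.05. Red lines mark the 9 TGF-beta genes and dashed lines a 1.5-fold difference; every red line lies between the dashed lines, and 142 genes beyond 2 in either direction are off the axis.

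The ligands differed in direction. Tgfb1, the isoform best known in fibrosis, and Tgfb3 were higher in the HSP27 TG lung to nearly the same degree, while Tgfb2 was slightly lower. Tgfb1 was printed in 10 spots, and their unscaled signal had a lowest, median and highest value of 1107, 1142 and 1179 in the C57BL6/N lung and of 1652, 1695 and 1862 in the HSP27 TG lung. The spots of the arrays did not overlap. After scaling Tgfb1 was at -0.17 and 0.27, a difference of 0.44 ± 0.05 (SD over 10 pairs of spots at the same position), or 1.36-fold. Tgfb3, which is known for its part in palate formation and wound repair, was also printed in 10 spots. Its signal was 3897, 4010 and 4246 on the C57BL6/N array and 5740, 6224 and 6691 on the HSP27 TG array, again without overlap. Its scaled values were 1.65 and 2.12, a difference of 0.47 ± 0.05 (SD, 10 spot pairs), or 1.39-fold. All 20 spot pairs of these ligands were higher in the HSP27 TG lung, and 0 of 20 reached 1.5-fold. This SD describes the printing and reading of spots on these arrays and not animals. The unscaled signals include the higher 75th percentile of the HSP27 TG array (1426 against 1287). How many other probes with 10 spots lack overlap was not counted, so the lack of overlap does not set these ligands apart from other genes.

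**Figure D2:**
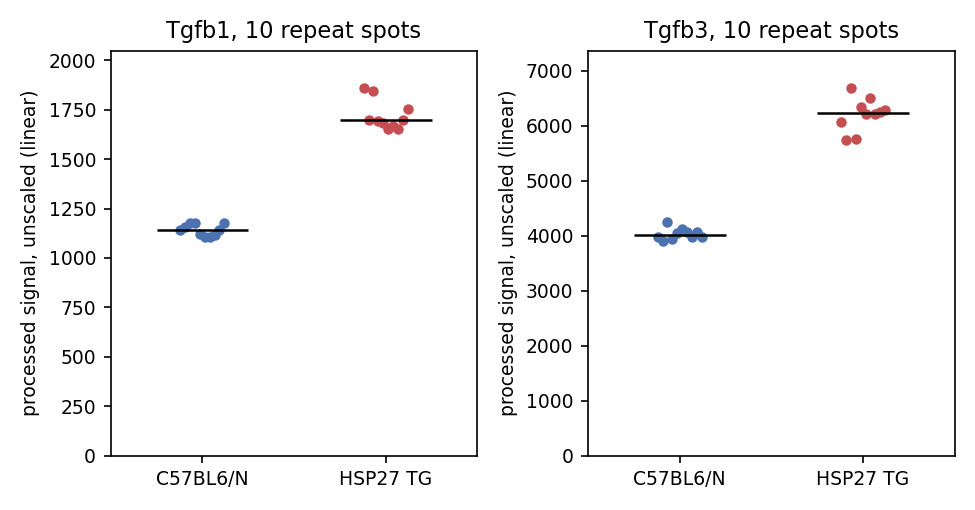
Unscaled processed signal (linear axis from 0) of each of the 10 spots of Tgfb1 (left) and of Tgfb3 (right) on the C57BL6/N and the HSP27 TG array. Points are spots, horizontal lines are medians, and the spots of the arrays do not overlap for either ligand.

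Tgfb2, the ligand that depends most on Tgfbr3 to reach the signalling receptors, was read by 2 probes with 1 spot each. The brighter probe read 5606 in the C57BL6/N lung and 5589 in the HSP27 TG lung, and the dimmer probe 2443 and 2359. Both were thus nearly level before scaling and lower after it, by 0.15 and 0.20 on the log2 scale. The mean difference was -0.18, or 1.13-fold lower, where the technical error of the mean was 0.04. That error comes from 315 probes printed in 10 spots, whose differences between single spots had a pooled SD of 0.15 among the dimmest 105, 0.06 among the middle 105 and 0.05 among the brightest 105. A constant subtracted from an array cancels when the difference of one ligand is set against that of another. The difference between the arrays was larger for Tgfb1 than for Tgfb2 by 0.62 on the log2 scale (1.53-fold) and for Tgfb3 than for Tgfb2 by 0.65 (1.57-fold), whereas those of Tgfb1 and Tgfb3 were 0.03 apart. Quantile normalization and cyclic loess, which are no such constants, gave 0.61 and 0.63 for Tgfb1 against Tgfb2.

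Of cell types that are known sources of Tgfb1, macrophage and monocyte markers were at least 1.5-fold higher for 6 of 10 measured genes and lower for 2, with summed signals of 28.9 and 45.0 times the 75th percentile of the C57BL6/N and HSP27 TG arrays. Platelet and megakaryocyte markers were lower for 4 of 8 and higher for 0, with summed signals of 6.74 and 6.25. Of all measured genes 10.2% were higher and 8.31% lower by 1.5-fold or more. In whole lung, a shift in the number of cells of a type and a shift in RNA per cell cannot be told apart. The part of either cell type in the values of Tgfb1 was not tested.

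The promoters of the ligands that differed in direction are shown because they are built differently, as is that of Tgfbr2, whose probes gave the widest values of the set. RefSeq promoters of build GRCm38.p6 matched 7 of the 9 genes with 9 start sites, and Tgfb3 and Tgfbr3 were not matched. The 250 bases before the start site are printed 5′ to 3′ on the strand of the gene. Capitals mark GC boxes, TATA boxes and CCAAT boxes in either orientation. They lie at chr7:25686752-25687001 (plus strand) for Tgfb1, at chr1:186705990-186706239 (minus strand) for Tgfb2 and at chr9:116175364-116175613 (minus strand) for Tgfbr2.
Tgfb1: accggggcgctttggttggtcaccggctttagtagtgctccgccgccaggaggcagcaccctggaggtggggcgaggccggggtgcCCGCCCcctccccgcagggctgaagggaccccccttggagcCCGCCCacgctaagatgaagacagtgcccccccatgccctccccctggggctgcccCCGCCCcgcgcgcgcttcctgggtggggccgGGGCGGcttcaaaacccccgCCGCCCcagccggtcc
Tgfb2: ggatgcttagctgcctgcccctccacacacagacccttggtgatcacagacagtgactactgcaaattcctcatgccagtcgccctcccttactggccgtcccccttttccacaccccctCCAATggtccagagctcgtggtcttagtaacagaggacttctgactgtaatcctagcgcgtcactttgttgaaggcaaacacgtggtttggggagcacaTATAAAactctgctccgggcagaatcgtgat
Tgfbr2: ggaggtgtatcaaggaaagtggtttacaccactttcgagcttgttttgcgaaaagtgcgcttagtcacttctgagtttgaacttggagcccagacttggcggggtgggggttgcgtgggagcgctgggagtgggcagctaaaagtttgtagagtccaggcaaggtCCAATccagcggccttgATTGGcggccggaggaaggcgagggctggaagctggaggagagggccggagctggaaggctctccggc

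The Tgfb1 window held 5 GC boxes (GGGCGG) and no TATA box, and 75.2% of its bases were G or C. The Tgfb2 window held 1 TATA box (TATAAA), which ended 26 bases before the start site at position -26, and 1 CCAAT box (CCAAT), with 53.6% G or C and no GC box. The Tgfbr2 window held 2 CCAAT boxes and neither of the others. Over 32851 promoter windows of the same length, 32.7% held a GC box, 12.4% a TATA box and 33.8% a CCAAT box, and the median share of G or C was 52.4%. Of the other 6 windows, GC boxes were found at 1 start of Tgfbr1 (2 matches) and at Ltbp2 (2 matches), and CCAAT boxes at the same start of Tgfbr1 (2 matches) and at 1 start of Ltbp1 (3 matches). A cyclic AMP response element (TGACGTCA, 1.55% of all windows) was found at that start of Ltbp1 alone. The AP-1 site (TGACTCA, 4.46%) and the paired Smad box (GTCTAGAC, 0.167%) were found in 0 of 9 windows, and the CAGA box (CAGACA, 17.1%) at Tgfb2 (1 match) and at the other starts of Tgfbr1 (1 match) and Ltbp1 (2 matches). Both strands were searched, and matches of different motifs did not overlap in these 9 windows. A match describes letters in the window and is no evidence that a factor was bound in these lungs.

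The receptors differed in sign, and the value of Tgfbr2 depended on the probe. Tgfbr3, or betaglycan, a co-receptor without kinase activity that captures ligands for Tgfbr2, read 5112 in the C57BL6/N lung and 4109 in the HSP27 TG lung at its only probe. Its scaled values were 1.99 and 1.53, a difference of -0.46, or 1.38-fold lower, beside a technical SD of 0.05. It was the lowest of the 9 genes, and 13.6% of all measured genes lay below it. Endothelial markers were at least 1.5-fold lower on the same array for 7 of 12 genes, against 8.31% of all genes, and higher for 0. All 12 were below 0, with summed signals of 257 and 160. Other cell types went the other way, where 10.2% of all genes were higher. Fibroblast markers were higher for 8 of 12 genes and lower for 0. Smooth muscle and pericyte markers were higher for 6 of 11 and lower for 0. The part of any of these cell types in the value of Tgfbr3, or of Tgfbr2 below, was not tested.

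Tgfbr2, the receptor that binds the ligand first, was read by 2 probes that did not give the same difference. The brighter probe (A_51_P450573) read 20339 in the C57BL6/N lung and 36542 in the HSP27 TG lung, a scaled difference of 0.70 or 1.62-fold. It was the only 1 of the 13 probes past 1.5-fold. The dimmer probe (A_55_P2107288) read 1162 and 1193, a scaled difference of -0.11. The mean over both probes was 0.29, or 1.23-fold higher, and with the brightest probe alone Tgfbr2 was past 1.5-fold. The gap of 0.81 between the probes was far beyond the technical SD of 0.05 and 0.06 for spots of this brightness. Among 3413 genes with 2 usable probes the median gap was 0.24, and 6.94% had a gap at least as wide. Among 721 genes whose probes differed in signal about as much as these (23.1-fold), 9.02% did. Both probes carry the same RefSeq accession, and the files do not say where in the transcript each lies.

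**Figure D3:**
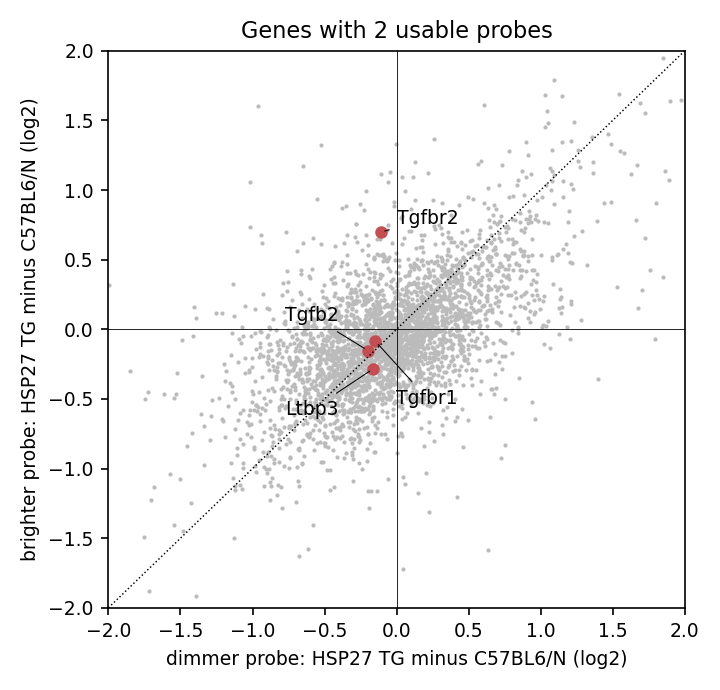
Log2 difference, HSP27 TG minus C57BL6/N, of the brighter probe (vertical) against the dimmer probe (horizontal) for genes with exactly 2 usable probes; the dotted line marks equal values and 25 genes lie beyond the axes. Tgfb2, Tgfbr1 and Ltbp3 (red) lie close to the line, and Tgfbr2 lies well above it at 0.70 and -0.11.

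Tgfbr1, the type I receptor kinase that phosphorylates Smad2 and Smad3, was close to level at both probes. The brighter read 2358 in the C57BL6/N lung and 2461 in the HSP27 TG lung, and the dimmer 142.7 and 142.8. Scaled differences were -0.09 and -0.15, with a mean of -0.12 and a technical error of 0.08. Tgfbr1 was the only gene of the set whose difference was within 2 technical errors of 0. That error covers repeat spots alone, and neither animals nor the gap of 0.81 between the Tgfbr2 probes. A difference beyond it need not be one between the groups. The difference between the arrays was larger for Tgfbr2 than for Tgfbr3 by 0.76 on the log2 scale, by 1.16 with the brighter Tgfbr2 probe and by 0.35 with the dimmer.

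**Figure D4:**
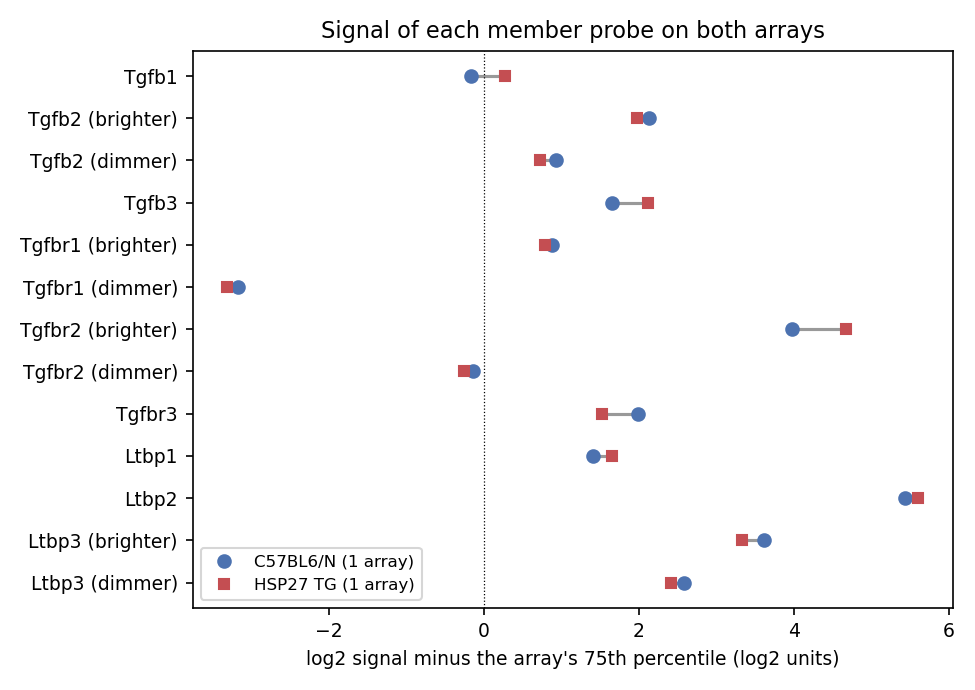
Scaled log2 signal (horizontal axis, log2 units above the 75th percentile of the array) of each of the 13 probes on the C57BL6/N array (circles) and the HSP27 TG array (squares), 1 array each. Levels of different probes are not comparable; the line between the marks is the difference, widest at the brighter Tgfbr2 probe (0.70).

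The 3 latent binders of the set differed little. Ltbp4, which is counted below with latency and activation, was at -0.34 over 2 probes (-0.44 and -0.23), wider than any of them. Ltbp1, which is linked to the ligand's propeptide by disulfide bonds and anchors it in the matrix, read 3401 in the C57BL6/N lung and 4478 in the HSP27 TG lung, with a scaled difference of 0.25 (1.19-fold higher). Ltbp2, a protein of elastic fibres and microfibrils that is not known to bind latent TGF-beta, read 55545 and 69304, with a difference of 0.17 (1.13-fold higher). Both had 1 probe with 1 spot, and a technical SD of 0.05. Ltbp3, which also binds latent TGF-beta, went the other way at both of its probes. The brighter read 15697 and 14281, a difference of -0.28, and the dimmer 7705 and 7626, a difference of -0.16. The mean was -0.22, or 1.17-fold lower, with a technical error of 0.04. The difference between the arrays thus exceeded that of Ltbp3 by 0.47 on the log2 scale for Ltbp1 (1.39-fold) and by 0.39 for Ltbp2 (1.31-fold), and those of Ltbp1 and Ltbp2 were 0.08 apart.

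The signs of all 9 gene values were kept in each of 11 alternatives of background correction, scaling, filtering and summary over probes (the brightest probe, or the median). Not all of these could move a member. With 1 or 2 probes per gene the median equals the mean, the filters changed no member value, and no member spot was an outlier. Tgfb1 ranged from 0.44 to 0.50, Tgfb3 from 0.47 to 0.53, Tgfb2 from -0.19 to -0.12 and Tgfbr3 from -0.46 to -0.41. Tgfbr2 had the widest range, 0.29 to 0.70, and its sign depended on the probe. The dimmer probe alone was below 0 in the reported setting and in all 11 alternatives, from -0.11 to -0.05. Of these, the filters and the summaries over probes cannot change the value of a single probe, which stayed at -0.11 there.

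Genes that act on or with the ligand and the receptors of the same pathway were compared next. Over all measured genes 10.2% were higher and 8.31% lower by 1.5-fold or more. Of 20 measured genes of TGF-beta latency and activation, 5 were higher by as much and 0 lower, and their median was 0.24. The highest were thrombospondin 1 (Thbs1, 1.01, with signals of 8867 for C57BL6/N and 19770 for HSP27 TG), which can release the ligand from its propeptide, and fibrillin 1 (Fbn1, 0.92, with 3171 and 6664), the microfibril to which latent binders attach. The others past 1.5-fold, named after their values were seen, were Mmp14 (0.82), Fbn2 (0.75) and Mmp2 (0.69), and Itgb8 was at background on both arrays. Of 10 measured co-receptors, ligand traps and other proteins that bind the receptors (called co-receptors and traps below), 5 were higher and 2 lower. The higher ones were small proteoglycans and other extracellular binders of the ligand or its receptors. Fibromodulin (Fmod) was at 1.90 and Cd109, a membrane-anchored inhibitor, at 1.49, and, named after their values were seen, Bgn was at 1.30, Lrg1 at 1.19 and Dcn 2.00-fold higher. The lower ones, endoglin (Eng, -0.65) and the type I receptor Acvrl1 (-0.63), are receptors of endothelial cells, whose markers were lower for 7 of 12 genes. Bambi was at background on both arrays. Beside the higher genes of both lists, fibroblast markers were higher for 8 of 12 genes and smooth muscle and pericyte markers for 6 of 11, and the part of these cells and of endothelial cells in either list was not tested.

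Genes that act inside the cell followed. Of 21 measured Smads and their regulators, 1 was higher by 1.5-fold or more and 5 lower, against 10.2% and 8.31% of all genes. Their median was -0.14. The inhibitory Smad6 was at -1.01, with signals of 6962 in the C57BL6/N lung and 3824 in the HSP27 TG lung. The ubiquitin ligase Smurf2 was at -0.71 over 3 probes that differed in size (-0.27, -0.60 and -1.27), while Smurf1, a related ligase, was at 0.59. The other lower genes, named after their values were seen, were Ep300 (-0.60), Ldlrad4 (-0.59) and Skil (-0.59), each 1.51-fold lower. The lower count depended on the scaling: it was 2 of 21 with median scaling, quantile normalization, cyclic loess, normexp or the percentile taken over spots, where 6.87%, 7.47%, 6.27%, 4.40% and 7.86% of all genes were lower. The higher count was 0 with normexp and 1 with the others. Of 22 measured target genes, 11 were higher and 1 lower, and their median was 0.59. This list, like the others, was chosen with earlier results of these data known, so its count is not independent of them. The highest were Itga11, a collagen receptor of fibroblasts, at 1.55 (signals of 300.5 and 973) and Acta2, an actin of smooth muscle and myofibroblasts, at 1.51 (9180 and 28919). The lower one was Id1, a target of the related bone morphogenetic proteins, at -0.61. In the same lung fibroblast markers were higher for 8 of 12 genes and lower for 0, with summed signals of 258 and 335, and smooth muscle and pericyte markers for 6 of 11 and lower for 0, with 19.9 and 35.6. Col1a1 and Col1a2 belong to both the target and the fibroblast lists, and Dcn to the traps and the fibroblast list. The part of these cell types in the target values was not tested.

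**Figure D5:**
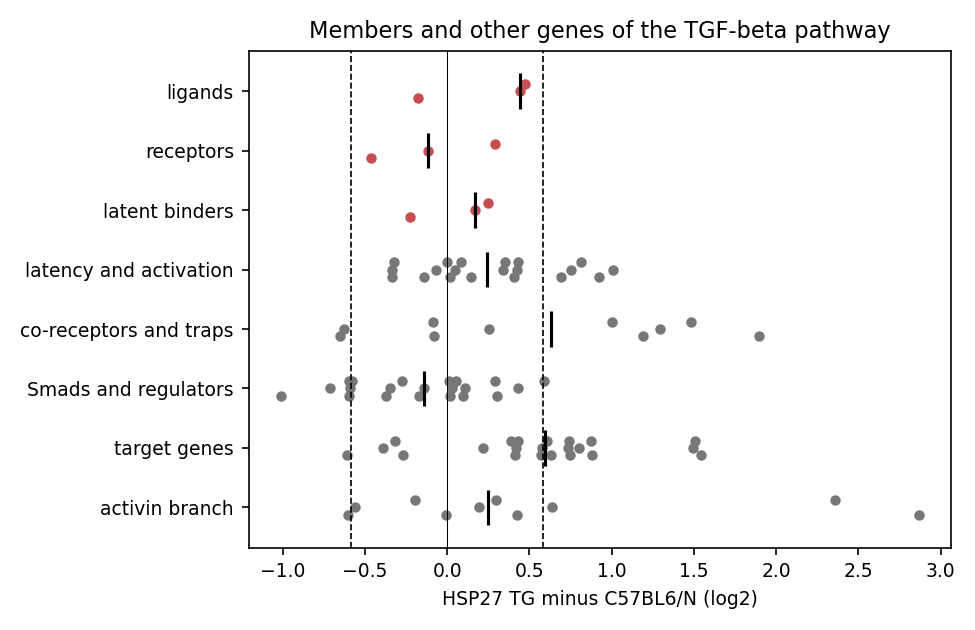
Log2 difference, HSP27 TG minus C57BL6/N, of each measured gene in the 3 groups of members (red) and the 5 other lists of the pathway (grey); points are genes and short black lines are medians. Dashed lines mark 1.5-fold. All 9 members lie between them, while 11 of 22 target genes lie beyond on the higher side. Members and lists were chosen with earlier results of these data known.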

How the data were processed

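The arrays are 1-colour (Cy3) Agilent arrays of total RNA. Per the file headers, the deposited scanner files were written by Agilent Feature Extraction 11.5.1.1 and give the intensity of each spot, on a grid of build mm9. The processed signal used here is background-subtracted and detrended there, and the arrays were not normalized to each other. Flags for spots above background, saturated or outlying come from the same files, per the file headers. Both arrays lay on 1 slide. The deposited series table is an intensity on the same linear scale, with column medians of 111 and 118. All 39030 single-spot probes equalled the processed signal within 0.1%. For repeated probes it equalled the mean of the spots in 330 and 320 of 399.

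Control and outlier spots were left out (no member spot was an outlier), log2 signals were averaged per probe, and the 75th percentile over non-control probes was subtracted. A probe was usable if at least 50% of its spots were well above background and none saturated on both arrays. A gene's value is the mean over its usable probes. Names came from a RefSeq gene table of GRCm38.p6, matched by unversioned accession (27508 of 39429 probes). Since the array build differs, the only positions given are those of the RefSeq promoter windows, on GRCm38.p6. Members and lists (5 of the pathway, 14 of cell types, 1 of sex-linked genes) were chosen with earlier results of these data known. The text names all members, up to 2 highest and 2 lowest genes past 1.5-fold per pathway list, and completes small counts. Ltbp4 was named after its value was seen. Technical error came from repeat spots and covers no animals, so that the number of arrays sets the precision. Normexp used median signals, without 7 spots at or below their local background. The steps were checked on simulated data. The alternatives that needed limma 3.58.1 ran in R 4.3.3. The rest ran in Python 3.11.15 (pandas 2.3.3, numpy 2.4.6), and matplotlib 3.10.9 drew the plots.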

Additional observations from a re-analysis of the deposited data

How the results depend on the processing

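Over all genes, normexp gave 980 genes at least 1.5-fold higher and 682 lower and no filter on dim probes 2526 and 2080, against 1582 and 1287. Of the members 0 were at least 1.5-fold higher, but 1 with the brightest probe per gene (Tgfbr2), and at 1.25-fold, added after the data were seen, 2 were higher and 1 lower. Their median stayed between 0.17 and 0.23 in 11 alternatives, of which the filters and the median over probes left every member value unchanged. At 2-fold the counts fell to 1 higher (latency and activation), 0 lower (co-receptors and traps), 0 higher and 1 lower (Smads and regulators), 3 higher and 0 lower (targets) and 0 lower (activin branch). The 5 lower Smads and regulators became 2 with normexp, median scaling, quantile normalization, cyclic loess and the percentile taken over spots. In the reported values 3 of the 5 were only 1.51-fold lower. Their 1 higher gene became 0 with normexp. The 2 lower co-receptors became 1 with normexp and median scaling. The 1 lower target became 0 with median scaling and cyclic loess, and the 1 lower gene of the activin branch 0 with those, normexp and quantile normalization. The 3 higher genes of that branch became 2 at 2-fold, 2 with normexp and 2 of 7 measured with the stricter filter. Without a filter they were 4 of 13. The 5 higher genes of latency and activation became 4 with normexp and 6 of 21 without a filter. The 11 higher targets became 10 of 21 with the stricter filter and 13 of 22 with median scaling. No paired analysis was possible because each group has 1 array. No replicate could be left out. Signal over background did not limit the members: their lowest signal was 142.7, and the dimmest probes called well above background read 11.9 and 12.5.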

Other observations

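In the activin branch of the same superfamily, 3 of 10 measured genes were at least 1.5-fold higher in HSP27 TG lung and 1 lower. Of all measured genes 10.2% were higher and 8.31% lower, and the median of the branch was 0.25. The differences of the ligand subunit and of its antagonist were wider than those of any TGF-beta ligand. Inhba, the subunit of activin A, read 97.7 in the C57BL6/N lung and 792 in the HSP27 TG lung, a scaled difference of 2.87 or 7.32-fold. Follistatin (Fst), which binds and neutralises activin, read 854 and 4853, a difference of 2.36 or 5.13-fold. Each rests on 1 probe with 1 spot. Of the receptors, Acvr1b, the type I receptor of activin, was at 0.64 (named after its value was seen) and the type II receptor Acvr2b at -0.60. Acvr1b was dim, at scaled values of -4.55 (C57BL6/N) and -3.91 (HSP27 TG). Acvr1c was well above background on the HSP27 TG array alone, and Gdf11 and Mstn on neither. Fibroblast markers (8 of 12 higher) and fat markers (4 of 4 higher) were counted in the same lung, and their part was not tested.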
